A study of Chlamydomonas reinhardtii with 12 samples.

Results

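The genes described here are those of Calvin cycle enzymes in the green alga Chlamydomonas reinhardtii, chosen by gene symbol: RBCS1, RBCS2, PGK1, GAP3, FBA3, FBP1, SEBP1, TRK1, RPE1 and PRK1. Of these 10 symbols 9 were found in the table of transcripts, and FBP1 stood at 2 loci, so the members are 10 loci of 17741. SEBP1 was not among the symbols; the locus that the table describes as sedoheptulose bisphosphatase carries the symbol SBP1 and is given beside the members, outside their counts, after its values were seen. Each locus is represented by its most expressed transcript, and all 10 passed the minimum of 1 FPKM in at least 1 group. FPKM counts fragments per kilobase of transcript, scaled to the mapped fragments of the library, so levels can be compared between genes.

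The study sequenced stranded poly(A) RNA of 12 cultures, 2 biological replicates in each of 6 groups, as far as the labels say. The groups were the wild type CC-124 and amiCYG12, a transformant of the same background in which an artificial microRNA lowers CYG12, a gene for a soluble guanylate cyclase. Both strains grew in acetate-containing TAP medium at 20 °C under continuous light of 20 µmol photons per square metre and second (the standard group). They were then kept dark for 6 h, in stirred open beakers (dark aerated) or in gas-tight flasks that turn anoxic (anoxia). The labels describe amiCYG12 as 1 transformant and name no control transformant. The dark groups were sampled 6 h after the standard ones, and the flasks differ from the beakers in the exchange of other gases too. The effects of darkness and of elapsed time cannot be told apart.

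The Calvin cycle fixes carbon dioxide in the chloroplast stroma with ATP and NADPH from the light reactions. Rubisco joins carbon dioxide to ribulose bisphosphate, phosphoglycerate kinase and glyceraldehyde phosphate dehydrogenase reduce the product to triose phosphate, and the remaining enzymes rebuild the acceptor. In algae and plants several of these enzymes are switched off in the dark through their thiol groups and through binding to the small protein CP12. An alga fed with acetate can live in darkness without the cycle.

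The deposited table holds 1 pooled FPKM value per group and the authors' own comparisons, so no value has a replicate error, and the depth of each library is unknown. A gene is said to have risen or fallen, or to be called, where the authors' deposited table marks the comparison as significant, which it does at q-values up to 0.0499. Log2 changes are log2 ratios of FPKM after adding 1, unless the deposited table is named. The errors behind the deposited p-values, recovered as the deposited log2 change over its normal quantile, had a median of 0.352 to 0.356 log2 units in the 9 comparisons and ran from 0.330 to 0.933 over the members; at the smallest p they are upper bounds. Called changes were no smaller than 0.861 in the authors' deposited table. CYG12, the target of the microRNA, stood at 0.132, 3.23 and 2.46 FPKM in wild-type cells and at 0.158, 0.353 and 0.429 FPKM in amiCYG12 (standard, dark aerated, anoxia), and amiCYG12 was called lower with dark aeration and under anoxia; in the standard group, where both strains were near 0, it was not tested. A rescaling to a common median ratio over 1604 abundant loci moves log2 changes against standard up by 0.28 and 0.41 in the wild type and by 0.25 and 0.38 in amiCYG12 (dark aerated, anoxia). Changes from dark aerated to anoxia move up by 0.12 and 0.13, and strain comparisons by 0.10 to 0.14. In RNA from whole cultures, fewer cells carrying a transcript and less of it per cell cannot be told apart.

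**Figure D1:**
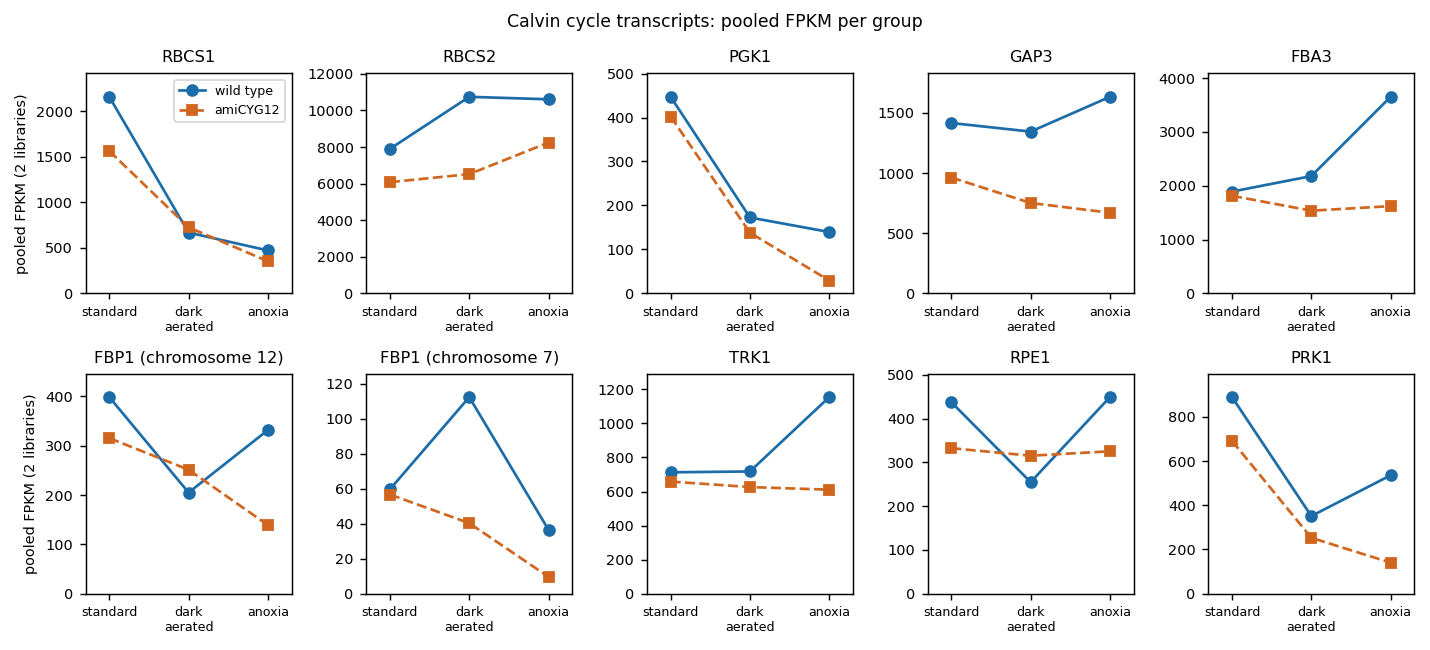
Pooled FPKM (y axes, each from 0) of the 10 members in the 3 incubations (x axes); circles and solid lines are the wild type, squares and broken lines amiCYG12, and each point is 1 value for 2 libraries with no error. RBCS1, PGK1, PRK1 and FBP1 of chromosome 12 are lower in both dark groups of both strains than in the standard group, and RBCS2 is not. Of the 10 members 7 have their lowest value in amiCYG12 under anoxia.

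The small subunit of Rubisco is encoded by RBCS1 (Cre02.g120100) and RBCS2 (Cre02.g120150), which lie side by side on chromosome 2. On genome version 5.5 RBCS1 spans 6936683 to 6941921 and RBCS2 6941968 to 6943439, with 46 bases between them. RBCS1 had 2157 FPKM in the standard, 667 in the dark aerated and 471 in the anoxia group of the wild type. In amiCYG12 it stood at 1562, 725 and 352 FPKM. Its level was thus highest in the light in both strains and lowest under anoxia in both. The fall of RBCS1 from standard to dark aerated was -1.69 in the wild type and -1.11 in amiCYG12, and that from standard to anoxia was -2.19 and -2.15. In amiCYG12 RBCS1 also fell from dark aerated to anoxia, by 1.04 on the log2 scale, while the wild type had -0.50 and was not called.

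RBCS2 was the most abundant member in every group and ranked between 4 and 12 among all loci. It stood at 7904, 10747 and 10612 FPKM in wild-type cells and at 6081, 6520 and 8248 FPKM in amiCYG12 (standard, dark aerated, anoxia). No comparison called RBCS2, and its log2 values against standard were 0.44 and 0.42 in the wild type and 0.10 and 0.44 in amiCYG12. Of the summed FPKM of both genes RBCS1 held 21.4% in the standard, 5.84% in the dark aerated and 4.25% in the anoxia group of the wild type. In amiCYG12 its share was 20.4%, 10.01% and 4.09%. The sum itself stood at 10061, 11414 and 11083 FPKM in wild-type cells and at 7644, 7245 and 8600.1 FPKM in amiCYG12. The pair are close paralogues, and the sources used here do not say how fragments matching both were shared out, so the split between them is uncertain; the difference between the genes' changes was not tested.

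**Figure D2:**
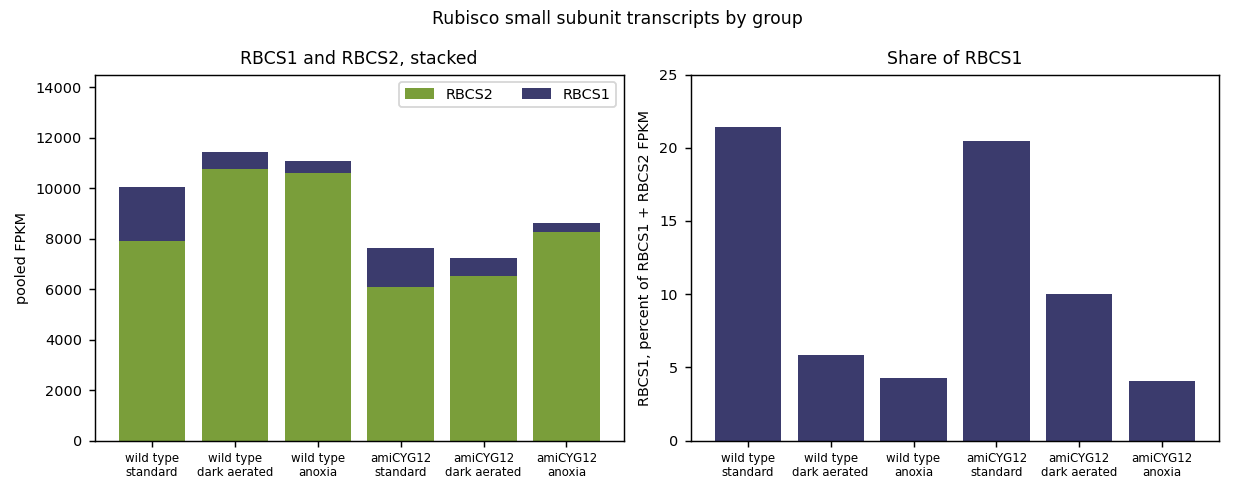
Left, stacked bars of pooled FPKM (y axis from 0) of RBCS2 and RBCS1 in the 6 groups; right, the percent of their sum held by RBCS1, with no replicate error in either panel. The share of RBCS1 is 21.4% and 20.4% in the standard groups and 4.25% and 4.09% under anoxia.

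Reduction of the first product takes phosphoglycerate kinase and a dehydrogenase. The difference between the changes of their transcripts was not tested. PGK1 (Cre11.g467770, chromosome 11, 1638740 to 1643130), the plastid kinase, stood at 447, 173 and 139.6 FPKM in wild-type cells and at 402, 138 and 29.2 FPKM in amiCYG12. Both dark groups of both strains lay below the standard group, and the lowest value was that of amiCYG12 under anoxia. The falls against standard were -1.37 with air and -1.67 under anoxia in the wild type, and -1.54 and -3.74 in amiCYG12, the last a 13.4-fold drop. The wild type call with air is lost after the rescaling, with -1.08. From dark aerated to anoxia PGK1 fell by 2.20 on the log2 scale in amiCYG12, where the wild type had -0.30 and was not called. GAP3 (Cre01.g010900, chromosome 1, 2039260 to 2042765), the glyceraldehyde phosphate dehydrogenase of the cycle, stood at 1416, 1344 and 1633 FPKM in wild-type cells and at 963, 751 and 670.1 FPKM in amiCYG12. None of the 6 incubation comparisons called GAP3, with values from -0.52 to 0.28.

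Aldolase and the bisphosphatases then turn triose phosphates into sugar phosphates. FBA3 (Cre05.g234550, chromosome 5, 2060640 to 2063875), an aldolase, stood at 1892, 2179.8 and 3654 FPKM in wild-type cells and at 1813, 1537 and 1622 FPKM in amiCYG12. It rose by 0.95 from standard to anoxia in the wild type, while amiCYG12 had -0.16 (0.22 after the rescaling) and was not called. The second annotated transcript of FBA3 stayed below 1 FPKM in every group, from 0.182 to 0.440.

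FBP1 stands for 2 loci with different courses. The locus on chromosome 12 (Cre12.g510650, 1935474 to 1938770), described as fructose bisphosphatase, stood at 399, 205 and 332 FPKM in wild-type cells and at 315, 251 and 139 FPKM in amiCYG12. It fell in the wild type from standard to dark aerated, with -0.96, and in amiCYG12 from standard to anoxia, with -1.17; neither is called after the rescaling, with -0.67 and -0.80. The FBP1 locus on chromosome 7 (Cre07.g338451, 3793109 to 3800376), which has no description in the table, stood at 59.7, 112 and 36.5 FPKM in wild-type cells and at 56.7, 40.3 and 9.59 FPKM in amiCYG12. This locus counts as a member by its symbol alone, which does not show that it works in the cycle. It was the 1 member that rose in the aerated dark wild type, by 0.90, and the call is lost when p-values are adjusted within that comparison alone. It fell from there to anoxia with -1.60 in the wild type and -1.96 in amiCYG12. The locus for sedoheptulose bisphosphatase, SBP1 (Cre03.g185550, chromosome 3, 5486878 to 5489490), stood at 1401, 1464 and 2162 FPKM in wild-type cells and at 1009, 998 and 922 FPKM in amiCYG12, and no incubation comparison called it.

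The last steps rebuild the acceptor of carbon dioxide. Transketolase, TRK1 (Cre02.g080200, chromosome 2, 984214 to 988819), stood at 713, 718 and 1155 FPKM in wild-type cells and at 659, 626 and 611 FPKM in amiCYG12. The epimerase RPE1 (Cre12.g511900, chromosome 12, 1825706 to 1828406) stood at 438, 255 and 449 FPKM in wild-type cells and at 333, 315 and 325 FPKM in amiCYG12. No comparison called TRK1 or RPE1. PRK1 (Cre12.g554800, chromosome 12, 7636065 to 7639700), phosphoribulokinase, makes ribulose bisphosphate and works in this cycle alone. It stood at 889, 351 and 536 FPKM in wild-type cells and at 691, 253 and 140.3 FPKM in amiCYG12. PRK1 fell with dark aeration in both strains, with -1.34 and -1.45. Against standard, anoxia gave a called -2.29 in amiCYG12 and a value of -0.73 in the wild type that was not called.

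**Figure D3:**
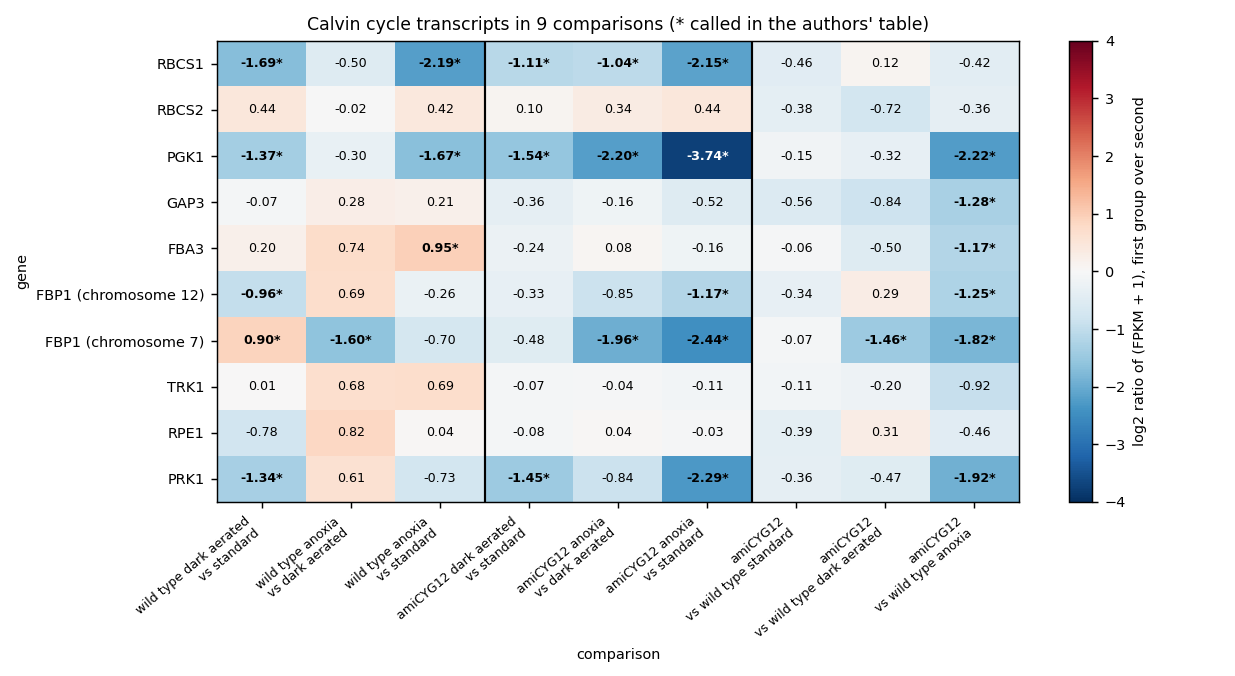
Log2 ratios of FPKM plus 1 (colour and number) of the 10 members (rows) in the 9 comparisons (columns), first named group over second; bold numbers with a star are called in the authors' table. RBCS1, PGK1 and PRK1 carry stars in both strains for dark aerated against standard, and 6 of the 10 rows carry a star in the last column, amiCYG12 against wild type under anoxia.

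In the wild type RBCS1, PGK1, PRK1 and FBP1 of chromosome 12 fell from standard to dark aerated. FBP1 of chromosome 7 rose, and the other members were not called. That makes 4 members lower and 1 higher of 10, where 6.75% of 10607 tested loci were called lower and 4.28% higher. The members are abundant transcripts, and among loci with at least 10 FPKM in a group the share called in either direction was 17.9%, against 11.03% of all tested loci. The members' median was -0.43, and that of all measured loci was -0.049. After the rescaling 2 members, RBCS1 and PRK1, were called lower and 1 higher, and the medians were -0.14 and 0.14.

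From aerated to oxygen-free darkness the wild type had few called members. From dark aerated to anoxia 1 member, FBP1 of chromosome 7, fell and 0 rose, against 7.96% of loci called lower and 6.88% called higher, and the median of the members was 0.44. Uncalled values included 0.82 for RPE1, 0.74 for FBA3, 0.69 for FBP1 of chromosome 12, 0.68 for TRK1 and 0.61 for PRK1. Against standard, anoxia gave 2 members called lower, RBCS1 and PGK1, and 1 called higher, FBA3, with 15.9% and 11.5% of loci called in those directions. After the rescaling 2 were called higher, FBA3 and TRK1 with 1.36 and 1.10, and the median of -0.11 became 0.29, so no common direction can be given for this comparison.

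In amiCYG12 3 members of 10, RBCS1, PGK1 and PRK1, fell from standard to dark aerated and 0 rose, beside 9.78% of loci called lower and 4.13% called higher. RBCS1 was not called there after the rescaling, with -0.86. From dark aerated to anoxia 3 members fell, PGK1, FBP1 of chromosome 7 and RBCS1, and 0 rose, while 12.9% of loci were called in each direction; RBCS1 again was not called after the rescaling, with -0.91. Anoxia against standard called 5 members lower, PGK1, FBP1 of chromosome 7 with -2.44, PRK1, RBCS1 and FBP1 of chromosome 12, and 0 higher, beside 15.7% of loci called lower and 9.27% higher. In either direction 24.9% of all tested loci were called, and 37.8% of those with at least 10 FPKM. The median over the members stood at -0.85 as deposited and at -0.47 once rescaled, where all measured loci had -0.075 and 0.19. The comparisons of 1 strain share their groups, so their calls are not independent of each other.

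The strain comparisons ask how far amiCYG12 stood from the wild type in the same incubation. In the standard group no member was called in the authors' deposited table, where the lowest p among them was 0.125; 5.04% of loci were called lower and 5.49% higher. All 10 values lay below 0, from -0.56 for GAP3 to -0.06 for FBA3, beside 54.9% of the measured loci. After the rescaling 7 of 10 did, beside 43.9%. The FPKM of all transcripts summed to 672089 in the wild type standard group and to 528786 in that of amiCYG12. The members held 2.43% of the sum in each. Their median in this comparison was -0.35, beside -0.041 for all measured loci. After the rescaling the medians were -0.21 and 0.047. Whether the lower values are particular to the members was not tested. With dark aeration 1 member was lower in amiCYG12, FBP1 of chromosome 7 with -1.46, and 0 were higher, beside 10.8% and 8.2% of loci.

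Under anoxia amiCYG12 fell short of the wild type in 6 of the 10 members and exceeded it in 0, beside 9.13% of loci called lower and 5.73% called higher. These shares cover all tested loci, while the members are abundant. Among loci with at least 10 FPKM in a group, the share called was higher in the aerated dark wild type and in amiCYG12 from standard to anoxia. For the strain comparison under anoxia that share is not given here. PGK1 had 29.2 FPKM against 139.6, a log2 of -2.22 with a recovered error of 0.557 at most, or 4.66-fold less. PRK1 followed with -1.92, FBP1 of chromosome 7 with -1.82, GAP3 with -1.28, FBP1 of chromosome 12 with -1.25 and FBA3 with -1.17. SBP1 was lower as well, with -1.23. For TRK1, with -0.92, the authors' deposited table gives a q of 0.0511 and no call. RPE1 with -0.46, RBCS1 with -0.42 and RBCS2 with -0.36 were not called. All 10 values lay below 0 both as deposited and after the rescaling, where 54.2% and 46.6% of the measured loci did, and the members' medians were -1.21 and -1.10. The call rules with p-values adjusted within the comparison and with the rescaling also gave 6 members lower. Before the rescaling, 7 of the 10 members had the lowest of their 6 group values in amiCYG12 under anoxia, beside 22.8% of measured loci. TRK1 was among the 7, with 611 FPKM beside 626 with dark aeration. After the rescaling its anoxia value in amiCYG12 lay above the dark aerated one, by 0.097 on the log2 scale.

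**Figure D4:**
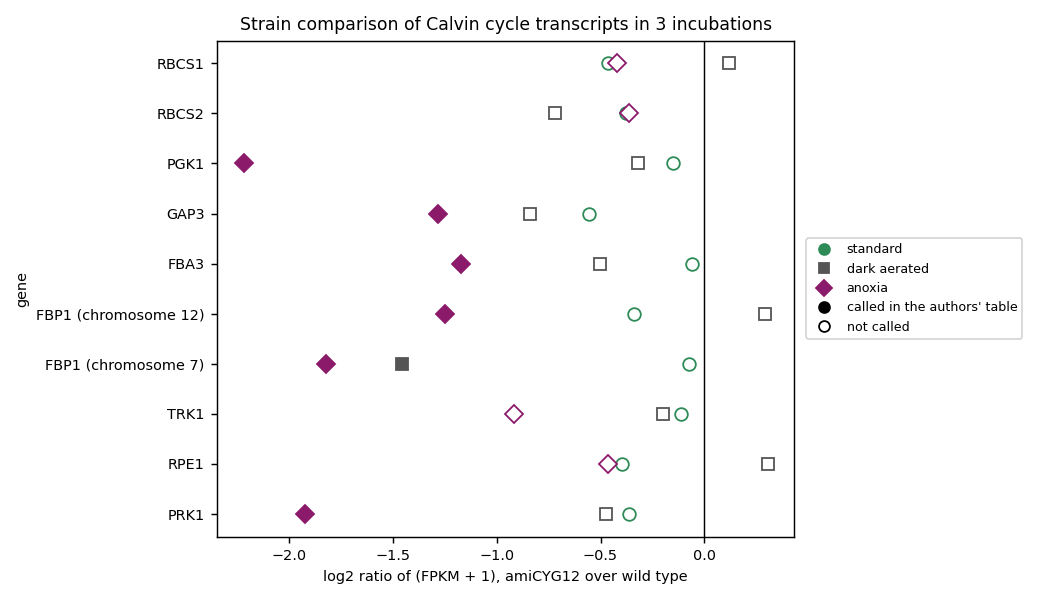
Log2 ratios of FPKM plus 1, amiCYG12 over wild type (x axis), of the 10 members (rows) in the standard (circles), dark aerated (squares) and anoxia (diamonds) groups; filled symbols are called in the authors' table. Diamonds lie left of 0 for every member, from -2.22 for PGK1 to -0.36 for RBCS2, and 6 of them are filled.

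A gene called in one strain and not in the other is not thereby different between them, so the difference of the 2 strains' deposited log2 responses was tested with the recovered errors over all loci. No member passed Benjamini-Hochberg adjustment in any of the 3 responses, where 0.399% of 10524 loci were called with a more negative response of amiCYG12 from dark aerated to anoxia. The share was 1.35% from standard to dark aerated and 0.387% from standard to anoxia. More positive responses of amiCYG12 were called for 0.85% of loci from standard to dark aerated, 0.314% from dark aerated to anoxia and 0.161% from standard to anoxia. In the response from standard to anoxia the difference was -2.11 for PGK1, with a 95% interval from -3.39 to -0.82 and an adjusted p of 0.122. It was -1.85 for FBP1 of chromosome 7, with an interval from -3.01 to -0.69, and -1.57 for PRK1, with an interval from -2.73 to -0.41. The errors of PGK1, FBP1 of chromosome 7 and PRK1 here rest in part on the smallest deposited p, as does that of PGK1 from dark aerated to anoxia. Such errors are upper bounds, so these intervals may be too wide, and the missing calls do not show equal responses. For RBCS1 the difference was 0.045, with an interval from -0.94 to 1.03. From dark aerated to anoxia the differences were -1.94 for PGK1, -1.55 for FBP1 of chromosome 12 and -1.46 for PRK1, with adjusted p-values of 0.132, 0.117 and 0.154. At an unadjusted p of 0.05 the members passing were 1, 3 and 4 of 10 in the responses to dark aeration, from dark aerated to anoxia and from standard to anoxia, all toward the negative, beside 7.87%, 5.90% and 4.56% of loci.

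A list of 45 symbols for other genes of the cycle and its helpers matched 24 loci, of which 22 were measured. A matching symbol does not show that a locus works in the cycle. The 22 include FTR1, which the table describes as an iron permease and not as a reductase of the thioredoxin system; it is counted below wherever it is called. In the aerated dark wild type 6 of the 22 fell and 1 rose, beside 6.75% and 4.28% of all loci; after the rescaling 1 fell, RMT1, and 1 rose. The chaperonin gene CPN60A had -1.70, RMT1, a methyltransferase of the Rubisco large subunit, had -1.48, and RPI1, the ribose phosphate isomerase that feeds PRK1's substrate pool, had -1.10. The gene that rose was GAP1, a further glyceraldehyde phosphate dehydrogenase, whose description does not place it in the chloroplast. GAP1 stood at 62.3, 145.0 and 46.3 FPKM in wild-type cells and at 53.6, 47.3 and 20.9 FPKM in amiCYG12. Like FBP1 of chromosome 7, it had its highest value in the aerated dark wild type. CP12, the linker of PRK1 and the dehydrogenase, stood at 722, 497 and 236 FPKM in wild-type cells and at 671, 285 and 97.4 FPKM in amiCYG12. CP12 fell from standard to anoxia in both strains, with -1.61 and -2.77. Triose phosphate isomerase, TPI1, fell there too, with -1.85 and -2.18.

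From dark aerated to anoxia 4 of the 22 list genes fell and 3 rose in the wild type, where 7.96% of all loci were called lower and 6.88% higher. In amiCYG12 7 fell, FTR1 among them, and 0 rose, where 12.9% of loci were called in each direction. The wild type's falls were in NTR3, a thioredoxin reductase, with -1.98, GAP1 with -1.63, TPI1 with -1.09 and CP12 with -1.07. The calls of TPI1 and CP12 are lost after the rescaling. The wild type's rises were in the Rubisco activase-like gene RCA2 with 1.33 and in the plastid chaperonin genes CPN60B2 with 1.13 and CPN60B1 with 0.92, subunits of the folding machine that Rubisco needs; the CPN60B1 call is lost when p-values are adjusted within the comparison. The activase RCA1, which clears inhibitors from Rubisco, stood at 659, 497 and 928 FPKM in wild-type cells and at 455, 464 and 429.7 FPKM in amiCYG12. Against standard, anoxia gave 9 lower, FTR1 among them, and 1 higher in the wild type, beside 15.9% and 11.5% of loci. In amiCYG12 it gave 8 lower and 1 higher, beside 15.7% and 9.27% of loci. The gene that rose was RCA2 in both, with 1.53 and 1.39. Among the genes that fell in both was NTR3, with -2.27 and -2.08. In amiCYG12 with dark aeration 2 fell, CP12 and TPI1, and 0 rose, a share near the 9.78% of loci called lower there, and neither is called after the rescaling.

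Between the strains 2 list genes were lower in amiCYG12 in the standard group, 1 with dark aeration and 11 under anoxia, and 0 were higher in each. The shares of all loci called lower were 5.04%, 10.8% and 9.13%, so the counts of the standard and dark aerated groups are near or below the background. The 2 of the standard group were RMT1, whose call is lost after the rescaling, and FTR1, the iron permease; NTR3, a thioredoxin reductase, was not called between strains. The 1 with dark aeration was GAP1, with -1.60. Under anoxia the called genes included RPI1 with -1.33, CP12 with -1.27, RCA1 with -1.11, GAP1 with -1.11 and the chaperonin genes CPN60A with -1.66, CPN60B2 with -1.45, CPN20 with -1.18 and CPN60B1 with -1.04; the CPN60B1 call is lost after the rescaling, as is that of RMT2, with -0.86. LCI5, a low-CO2-inducible gene, had 978 FPKM in the wild type and 489.8 in amiCYG12 under anoxia, a called -0.995. That call is lost when p-values are adjusted within the comparison and also after the rescaling, with -0.89. The median of the list's 22 genes in that comparison was -0.90, beside -0.039 for all measured loci.

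**Figure D5:**
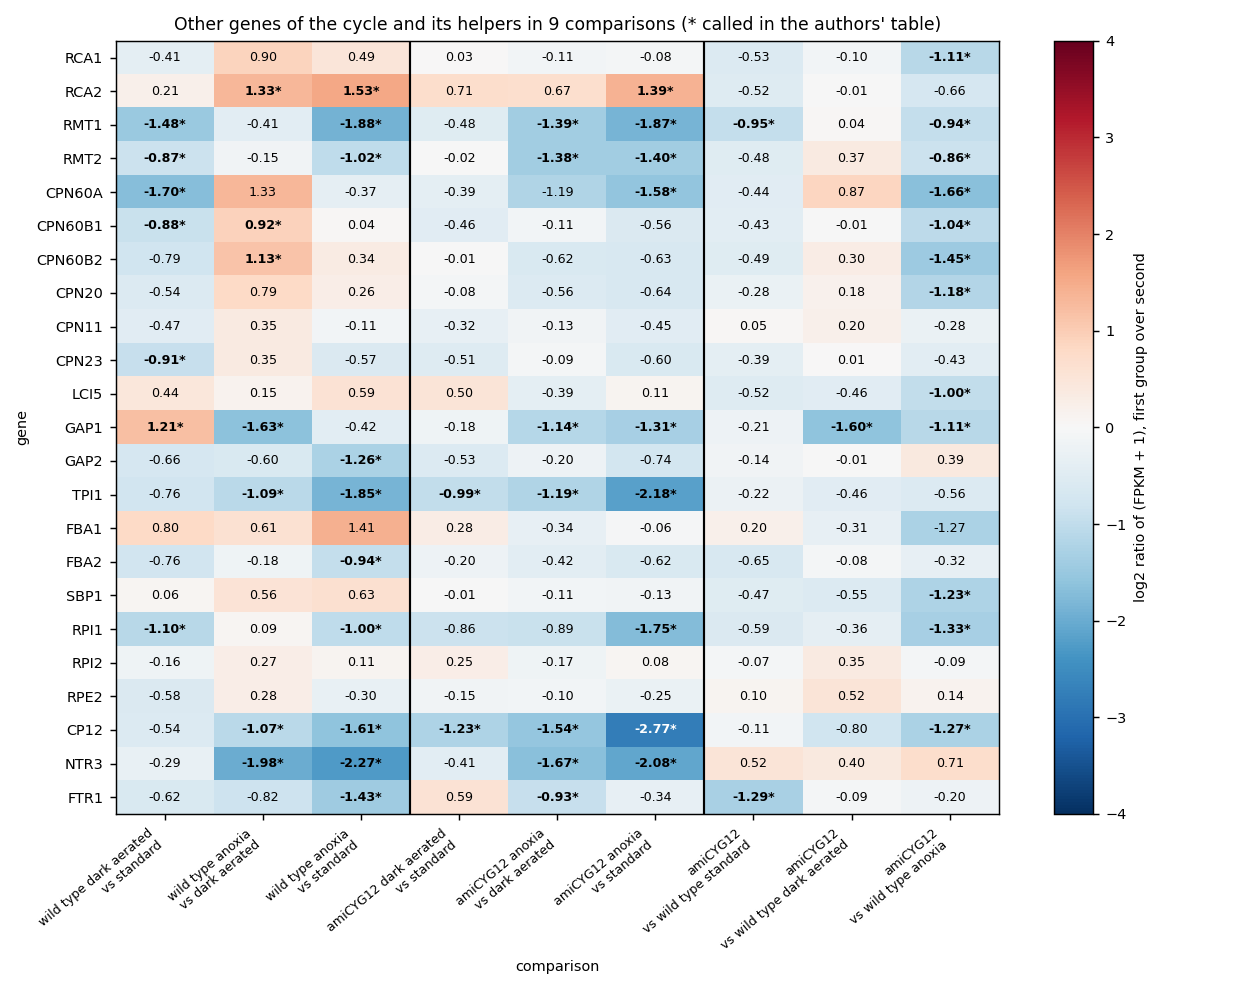
Log2 ratios of FPKM plus 1 (colour and number) of SBP1 and the 22 measured list genes (rows) in the 9 comparisons (columns), first named group over second; bold numbers with a star are called in the authors' table. In the last column, amiCYG12 against wild type under anoxia, SBP1 and 11 list genes carry stars, all with negative values.

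Ordered by mean FPKM over the 6 groups, the members ran from RBCS2 with 8352 over FBA3 with 2116, GAP3 with 1129, RBCS1 with 989, TRK1 with 747, PRK1 with 477, RPE1 with 352, FBP1 of chromosome 12 with 274 and PGK1 with 221 to FBP1 of chromosome 7 with 52.5. Without replicate values, differences between neighbours in that order were not tested. RBCS2 stood above FBA3 in every group. The highest of the 6 group values was 1.76 times the lowest for RPE1, 1.77 times for RBCS2 and 1.89 times for TRK1. It was 15.3 times for PGK1, 11.7 times for FBP1 of chromosome 7, 6.34 times for PRK1 and 6.12 times for RBCS1. The mean of the members' centred log2 profiles was highest in the wild type standard group, at 0.57, and lowest in amiCYG12 under anoxia, at -0.94. Over the 6 groups, Pearson's r with that mean was 0.97 for PRK1, 0.93 for PGK1 and 0.91 for FBP1 of chromosome 12, and 0.070 for RBCS2; each member is itself part of the mean.

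Among 1456 other loci with a symbol and at least 10 FPKM in a group, the 5 whose profile over the 6 groups correlated best with the members' mean were NUOB13, CYN38, LHCA5, CPLD61 and AAA1, with r of 0.99, 0.99, 0.98, 0.98 and 0.98. The table describes NUOB13 as a subunit of the respiratory NADH:ubiquinone oxidoreductase, CYN38 as a cyclophilin-type isomerase, LHCA5 as an antenna protein of photosystem I and AAA1 as a plastid ADP/ATP translocase, and gives CPLD61 no description. LHCA5 stood at 1652, 485 and 592 FPKM in wild-type cells and at 530.2, 188 and 69.3 FPKM in amiCYG12. The 6 points share their libraries, and these values are a description with no test.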

How the data were processed

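Per the file headers, the authors mapped the reads to genome version 5.5 (Phytozome) with Bowtie, TopHat and SAMtools and used Cufflinks and Cuffdiff for expression and comparisons; the submitters' processing notes give CASAVA 1.8.2, Bowtie2 2.0.5, TopHat2 2.0.6, SAMtools 1.2 and Cufflinks 2.1.1. The authors deposited, for 19505 transcripts, 1 FPKM value per group of 2 libraries, and for 9 of the 15 possible pairs of groups a log2 fold change, a p-value and a q-value. The deposited log2 changes match the FPKM ratios to within 5.36e-05. In every comparison the p-values the authors deposited go down to 5e-05 and the q-values to 0.000623. The sources used here do not say whether the quantification used the strand.

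The members and gene lists were chosen with earlier results of these data known. The genes named are all members, the genes of the list, and the 5 loci most like the members' mean profile. The q-values cover transcripts; calls were read for the most expressed transcript (highest mean FPKM) of each of 10915 loci with at least 1 FPKM in a group. Log2 ratios used a pseudocount of 1. Errors were recovered from p-values up to 0.95; at the smallest p they are upper bounds. The strain difference used the smaller of 2 errors, combined in quadrature over the responses or over the strain comparisons, a two-sided normal test and Benjamini-Hochberg at 0.05, and was tested on simulated data. Alternatives were pseudocounts of 0.1 and 10, summed transcripts, a rescaling over loci with at least 10 FPKM in every group (with the median error where none was recovered), p-values adjusted within a comparison, other FPKM minimums and the larger error. Positions come from the table, whose starts count from 0, written from 1; all 10 members have the same positions in RefSeq's Chlamydomonas_reinhardtii_v5.5. Protein and promoter sequences and the planned promoter motifs were not used here. Python 3.11.15, pandas 2.3.3, numpy 2.4.6, SciPy 1.17.1 and matplotlib 3.10.9 were used.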

Additional observations from a re-analysis of the deposited data

How the results depend on the processing

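No paired analysis was possible because the table holds pooled group values with no column per replicate, and leaving out replicates was not possible for the same reason. With p-values adjusted within each comparison, the count of members called higher in the aerated dark wild type went from 1 to 0. With the rescaling to a common median ratio, the count called lower in that comparison went from 4 to 2 and the count called higher in the wild type from standard to anoxia from 1 to 2. The rescaling moved the members' median from standard to anoxia from -0.11 to 0.29 in the wild type and from -0.85 to -0.47 in amiCYG12. The other counts of members called stayed within 1.5 times under both call rules, and the other medians moved by less than the median recovered error under all 4 settings. Of 90 changes of single members, 13 changed sign with the rescaling, none of them called, and none changed sign under the other settings; a pseudocount of 10 moved 3 of them by more than their error. The list's counts moved most with the rescaling: called lower, from 6 to 1 in the aerated dark wild type, where adjustment within the comparison gave 3, from 4 to 2 in the wild type from dark aerated to anoxia, from 2 to 0 in amiCYG12 with dark aeration and from 2 to 1 between strains in the standard group; called higher, from 1 to 3 in the wild type from standard to anoxia and from 0 to 1 in amiCYG12 with dark aeration. A minimum of 10 FPKM in a group raised the share of loci called in either direction to 17.9% in the aerated dark wild type and to 37.8% in amiCYG12 from standard to anoxia. With the larger error 0 members differed between strains in each of the 3 responses, as with the smaller.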
